A study of Rattus norvegicus with 3 samples.

Results

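Basement membranes are sheets of matrix under epithelia and around vessels, glia and muscle, and the set described here holds 19 of their chains together with 24 integrin chains, the receptors that bind cells to them. The chains are 10 laminins, 6 type IV collagens, both nidogens and agrin, and the integrins are 16 alpha and 8 beta chains. Members are the genes whose symbol belongs to one of these families and whose UMIs (unique molecular identifiers, 1 per captured RNA molecule) over all retained cells reached 20, which gave 43 of the 32623 genes in the matrices. The UMI totals that chose the members ranged from 36 for Itgal, 39 for Itgam and 40 for Itgax to 50568 for Nid1, 60683 for Itgb1 and 95800 for Col4a1. Of the symbols that matched, 0 fell below the limit. Perlecan (Hspg2) and laminin alpha 3 (Lama3) were not analysed here.

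The cells came from the dissociated cochlear basal membrane of Sprague-Dawley rats that received no treatment, taken at postnatal day 1 (P1), 7 (P7) and 14 (P14). At each stage tissue of 40 rats was pooled and 1 single-cell RNA-seq library was made with the 10x Genomics 3′ V3 kit. The animals of a pool cannot be told apart, and a stage cannot be told apart from its library, so no difference between stages was tested. All differences below are descriptions of these 3 libraries. Although greater epithelial ridge, a transient epithelium of the young cochlea, is the cell type on the labels, most retained cells lay in clusters named otherwise: 17670 of 30641 in clusters called stromal-like and 549 in the cluster with cochlear epithelium markers.

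In a basement membrane, laminin trimers of 1 alpha, 1 beta and 1 gamma chain form a network at the cell surface, and type IV collagen trimers form a network of their own. The collagen chains assemble as alpha1 and alpha2 in most tissues and as alpha3, alpha4 and alpha5 or as alpha5 and alpha6 in specialized ones. Nidogens bind both networks and agrin is a heparan sulfate proteoglycan that binds laminin. Integrins are pairs of 1 alpha and 1 beta chain whose partners set the ligand. In the inner ear, alpha3, alpha4 and alpha5 collagen chains are known from Alport syndrome, in which defects of these genes impair kidney and hearing, and the vessels of the stria vascularis are wrapped in a prominent basement membrane.

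The type IV collagen genes lie in head-to-head pairs that share a promoter region, and the results below return to the pairs, so the windows around 3 of their start sites are shown. They were read from RefSeq for the GRCr8 assembly, from 250 bases before to 50 bases after the annotated start, 5′ to 3′ on the strand of the gene. Capitals mark the GC box (GGGCGG or CCGCCC) and the CCAAT box (CCAAT or ATTGG), each searched on both strands.
Col4a1, chr16:84885347-84885646, plus strand: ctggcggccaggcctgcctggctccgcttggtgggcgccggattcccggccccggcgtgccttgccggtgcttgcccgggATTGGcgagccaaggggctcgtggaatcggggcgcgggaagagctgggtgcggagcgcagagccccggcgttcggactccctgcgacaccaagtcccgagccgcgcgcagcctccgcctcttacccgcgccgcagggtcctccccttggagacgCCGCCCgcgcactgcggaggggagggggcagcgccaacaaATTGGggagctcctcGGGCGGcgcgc
Col4a3, chr9:91323740-91324039, plus strand: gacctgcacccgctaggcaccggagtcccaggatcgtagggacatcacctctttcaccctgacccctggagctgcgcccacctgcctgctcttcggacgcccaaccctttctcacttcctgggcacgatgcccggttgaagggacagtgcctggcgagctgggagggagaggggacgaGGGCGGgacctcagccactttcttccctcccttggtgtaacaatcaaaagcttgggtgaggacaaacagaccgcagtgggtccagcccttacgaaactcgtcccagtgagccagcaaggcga
Col4a4, chr9:91323528-91323827, minus strand: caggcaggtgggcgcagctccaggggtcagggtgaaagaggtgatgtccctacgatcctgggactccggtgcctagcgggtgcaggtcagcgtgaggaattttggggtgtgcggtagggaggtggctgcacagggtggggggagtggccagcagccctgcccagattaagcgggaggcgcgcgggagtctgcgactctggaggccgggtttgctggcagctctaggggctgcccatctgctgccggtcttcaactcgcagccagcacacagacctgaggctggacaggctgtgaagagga

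The start sites of Col4a1 and Col4a2 are 77 bases apart, and the Col4a2 start at position 84885520 lies inside the Col4a1 window. Those of Col4a3 and Col4a4 are 413 bases apart and their windows share 88 bases, while Col4a5 and Col4a6 start 1415 bases apart. The Col4a1 window holds 2 GC boxes and 2 CCAAT boxes, the Col4a3 window 1 GC box, and none of the 3 holds a TATA box (TATAAA or TTTATA). Of the 33469 windows of the same length in the table, 33.1% hold a GC box, 37.5% a CCAAT box and 14.2% a TATA box. A window was found for 34 of the 43 members. The matches describe these letters only, and the reads themselves were aligned to the earlier rn6 assembly.

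After filters on the number of genes and on mitochondrial UMIs (under 25%), 12779 cells remained at P1, 12581 at P7 and 5281 at P14. The median depth was 6565 and 6878 UMIs per cell at P1 and P7 and 1614 at P14, so low members are measured least well at P14. Between 16 and 53 retained barcodes were shared by any 2 libraries. Clusters were formed without the members, joined into broad types and called "-like" from marker genes. Levels are given for types with 50 or more cells of a stage: stromal-like (8352, 6440 and 2878 cells at P1, P7 and P14), glia-like (1663, 2999 and 415), endothelial-like (165, 181 and 987), mural-like, that is with markers of pericytes and smooth muscle (328, 288 and 62), epithelium-like (279, 217 and 53), neuron-like at P1 (386), macrophage-like at P1 and P7 (107 and 89) and B cell-like at P14 (287). A further 4402 cells lay in clusters that were left unnamed, and they counted among all other cells in the comparisons of types. In 1 of these clusters, of 708 cells with glial and stromal markers, 86.2% of the barcodes were marked as likely doublets.

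The stromal-like name is the loosest: in its clusters 4, 8, 14 and 21 the best-scoring marker list was not a stromal one. In these, 11, 9, 13 and 15 of 35 stromal markers were at least 2-fold above the other named types, against 9 in the endothelial-like cluster. The same type name covers partly different clusters at different stages. Of the stromal-like cells, 6951 of 8352 at P1 lay in clusters 0, 2 and 8 and 4745 of 6440 at P7 in clusters 3, 7 and 11, while those of P14 lay almost all in clusters 5, 14 and 21. Of the glia-like cells, 1307 of 1663 at P1 lay in cluster 6 and 2605 of 2999 at P7 in cluster 1, and 394 of 415 at P14 in a cluster with 6 cells of P7. A difference between stages within these types and a difference between such clusters cannot be told apart. The cochlear epithelium markers summed to 3625, 6498 and 10610 CPM in the epithelium-like cells at P1, P7 and P14, with none of the 10 markers at 0 UMIs. A level is given in CPM, the UMIs of a gene summed over the cells of a group and scaled so that all genes of the group sum to 1000000. Its exact 95% Poisson interval covers counting error only, not the spread between cells or between animals. Intervals that lie apart are therefore no test of a difference. UMIs mark the 3′ ends of transcripts and were not scaled to length, so a level is compared between cells and not between genes. A gene was called higher or lower when log2(CPM + 10) differed by at least 1 between 2 groups, which is 2-fold on that scale, among genes with a mean of at least 10 CPM over both groups.

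With the stages of a type pooled, the highest level was in mural-like cells for 14 of the 43 members, in glia-like cells for 12, in macrophage-like cells for 7, in epithelium-like cells for 5, in endothelial-like cells for 3 and in stromal-like cells for 2. All 6 type IV collagen chains were highest in mural-like cells. The laminins were spread over the glia-like, epithelium-like, endothelial-like, mural-like and stromal-like cells. The first and the second type had overlapping intervals for Lama1, Lama2, Lama5, Itga2, Itga4, Itga7, Itga9, Itga10, Itga11, Itgb3 and Itgb7. Of these, Itga9 and Itgb7 counted for macrophage-like cells at 1.92 CPM each. The share of all genes that were highest in each type is not given here, so the counts describe the members only.

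**Figure D1:**
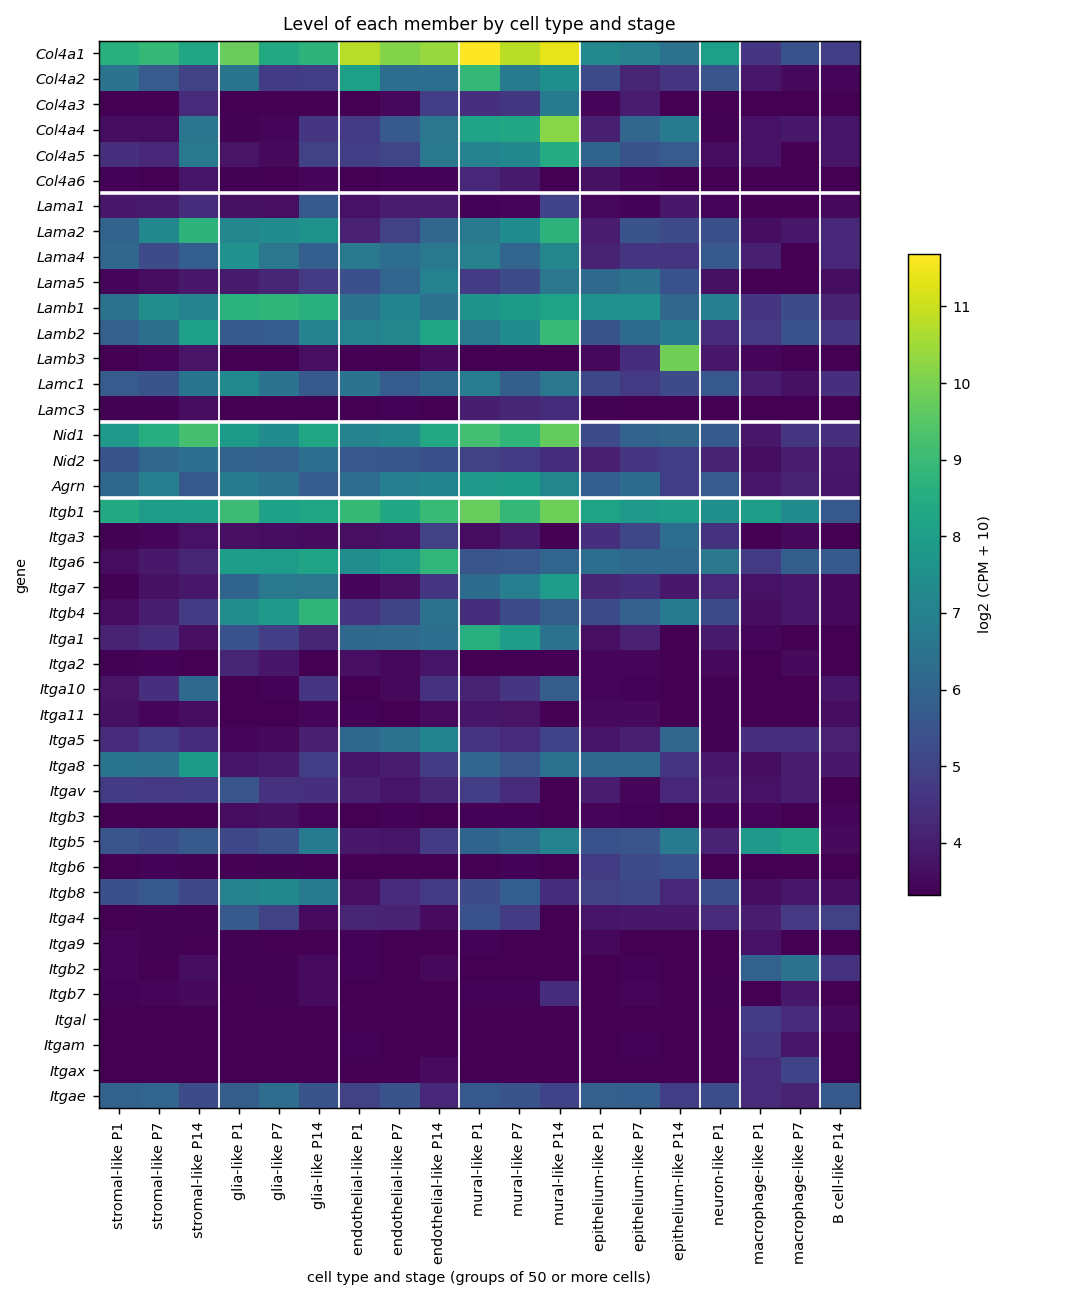
Level of 42 of the 43 members (rows, grouped by role) in the 19 groups of a broad cell type and stage with 50 or more cells (columns), as log2(CPM + 10). The brightest cells are Col4a1 in the mural-like columns, Itgb1 stands above the floor in all columns, and the macrophage-like and B cell-like columns are dark for the basement membrane chains.

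Against all other cells, 11 of the 25 members tested were called higher in mural-like cells, where 5.3% of all genes were, and 0 lower, against 5.88% of all genes. The 11 were Col4a1, Col4a2, Col4a4, Col4a5, Nid1, Agrn, Lama5, Itga1, Itga4, Itga7 and Itgb1. The median log2 ratio was 0.78 over the 25 members tested and 0.02 over all genes tested. Taken within each stage, 8 of the 11 were at or above 2-fold in all 3, the exceptions being Itgb1, Nid1 and Itga4, and Itga4 did not keep its direction. Nid1 and Itga4 were also below 2-fold with the mean of each cell's CPM (0.96 and 0.87) and after thinning (0.91 and 0.74). Of the mural-like barcodes, 11.9% were marked as likely doublets, and without the marked barcodes all of the 11 stayed above 2-fold.

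In endothelial-like cells, 9 of 24 members were called higher (10.2% of all genes) and 4 lower (8.26%). Those higher were Col4a1, Col4a2, Col4a4, Col4a5, Lama5, Lamb2, Itga1, Itga5 and Itga6, and those lower were Lama2, Itga8, Itgb5 and Itgb8. Within each stage 5 of the 9 were at or above 2-fold in all 3, the exceptions being Col4a2, Col4a4, Col4a5 and Lamb2. Of the 4 lower, 2 were past 2-fold in all 3, Lama2 and Itga8. Col4a2 was at 0.71 with the mean of each cell's CPM and at 0.77 after thinning. In glia-like cells, 8 of 21 were called higher (5.82%), namely Lama4, Lamb1, Lamc1, Itga4, Itga6, Itga7, Itgb4 and Itgb8, and 1 lower, Itga8 (9.2%). Within each stage 5 of the 8 were at or above 2-fold in all 3, and Itga4 and Lamc1 did not keep their direction. Lamc1 was at 0.86 with the mean of each cell's CPM and at 0.99 with the members among the variable genes. In stromal-like cells 1 of 23 was called higher, Itga8 (2.75%), and 5 lower, Col4a4, Itga1, Itga6, Itga7 and Itgb4 (7.08%). Of the 5, Itga6, Itga7 and Itgb4 were past 2-fold within every stage. Col4a4 was at -0.95 with the mean of each cell's CPM and at -0.84 after thinning. The stromal-like cells made up most of all cells, and the members tested there had a median log2 ratio of -0.08 against -0.03 for all genes.

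In epithelium-like cells, 5 of 27 members were called higher (6.2%), Col4a5, Lama5, Lamb3, Itga3 and Itgb6, and 7 lower (7.08%), Col4a1, Col4a2, Lama2, Lama4, Nid1, Nid2 and Itga1. In macrophage-like cells, 2 of 22 were called higher, Itgb2 and Itgb5 (9.79%), and 16 lower (19.9%), with a median of -1.96 over the members tested and -0.28 over all genes. Within each stage, Itgb6 was the 1 of the 5 at or above 2-fold in epithelium-like cells in all 3, and Col4a5 did not keep its direction. With a mitochondrial limit of 10% the log2 ratio of Lamb3 was 0.64, below 2-fold, and that of Itga1 was -0.95. Col4a5 was at 0.63 with the mean of each cell's CPM and at 0.79 after thinning, and Col4a2 at -0.94 after thinning.

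Type IV collagen alpha1 and alpha2 are the chains of the common collagen network. Col4a1 was at 3272 CPM (95% interval 3190.0 to 3355) at P1, 1776 (1717 to 1837) at P7 and 2654 (2328 to 3014) at P14 in mural-like cells. In endothelial-like cells it was at 1767 (1706 to 1829), 1099 (1047 to 1153) and 1330.0 (1273 to 1388) CPM at the same stages. The glia-like cells followed with 856, 329.8 and 418 CPM and the stromal-like cells with 383, 462 and 299 CPM. This order of types held at P1 and P14, while at P7 the stromal-like level was above the glia-like one. Epithelium-like cells had 144, 115 and 76.2 CPM of Col4a1 and macrophage-like cells 14.8 and 32.9 CPM. After each cell was thinned to 1000 UMIs, 91.4% of 327 mural-like cells at P1 had a Col4a1 UMI, against 0 of 107 macrophage-like cells, with an exact 95% upper limit of 3.39% at that depth. Before thinning 6.54% of the same macrophage-like cells had a Col4a1 UMI.

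Col4a2 was likewise highest in mural-like and next in endothelial-like cells at each stage, with a larger difference between P1 and P7. In mural-like cells it was at 466 CPM (436 to 498) at P1, 98.7 (85.0 to 114) at P7 and 167 (93.6 to 276) at P14. In endothelial-like cells its level was 259 CPM (236 to 283), 70.6 (57.9 to 85.3) and 72.7 (59.9 to 87.4). In glia-like cells it was 85.4, 17.3 and 19.5 CPM and in stromal-like cells 80.1, 43.1 and 21.2 CPM. The P1 level was thus the highest of the 3 in each of these types, with intervals apart from those at P7. Over the 19 groups the levels of Col4a1 and Col4a2 ordered alike (Spearman's rho 0.92, Pearson's r 0.89), a description over groups that share libraries and depth. The Col4a1 UMIs per Col4a2 UMI ranged from 4.79 in stromal-like cells at P1 to 21.4 in glia-like cells at P14 over the 13 groups with 20 or more UMIs of both. The start sites of both genes lie inside the Col4a1 window printed above.

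Col4a3, Col4a4 and Col4a5 encode the chains of the alpha3-alpha4-alpha5 network. Col4a4 was at 274 CPM (251 to 299) at P1, 312 (288 to 339) at P7 and 1171 (958 to 1418) at P14 in mural-like cells, where 47 of the 62 cells at P14 had a UMI of it. In stromal-like cells it was at 2.43 CPM (2.05 to 2.85), 2.23 (1.83 to 2.69) and 87.2 (79.4 to 95.5). The endothelial-like levels were 16.6, 39.9 and 88.8 CPM and the epithelium-like levels 6.79, 58.4 and 95.3 CPM. The P14 level was the highest in all 4 types, although in epithelium-like cells its interval overlapped that at P7. In glia-like cells Col4a4 had 2, 12 and 16 UMIs, or 0.237, 0.748 and 14.9 CPM. An unnamed P14 cluster of 101 cells that carried endothelial and pericyte markers had 653 CPM (569 to 746), and Col4a4 is among the 10 leading genes of that cluster.

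Col4a5 was at 119.9 CPM (105 to 137), 140.4 (124 to 158) and 346 (235 to 491) in mural-like cells at P1, P7 and P14. In stromal-like cells it was at 11.8, 9.45 and 93.0 CPM and in endothelial-like cells at 19.4, 23.5 and 92.7 CPM, so that the P14 level stood apart there too. Epithelium-like cells had 55.2 CPM at P1, 34.1 at P7 and 42.9 at P14, with overlapping intervals between P7 and P14.

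Col4a3 was low in all cells, with 208 UMIs in total. It had 12.3 CPM (7.77 to 18.4) in mural-like cells at P1, 15.8 (10.7 to 22.6) at P7 and 100.4 (45.9 to 191) at P14, the last from 9 UMIs in 7 cells. At P14 it was at 18.7 CPM in endothelial-like and 10.5 CPM in stromal-like cells, against 1.31 and 0.101 CPM at P7. Glia-like cells had 0 UMIs of Col4a3 at all 3 stages, which allows up to 0.117 CPM over all 5077 cells. Col4a3 and Col4a4, whose start sites face each other 413 bases apart, had a Spearman's rho of 0.70 and a Pearson's r of 0.98 over the 19 groups, of which 4 had 20 or more UMIs of both. Mural-like cells at P14, highest in both genes and with 9 Col4a3 UMIs, are not among these 4. The Col4a3 UMIs per Col4a4 UMI ranged over the 4 groups from 0.0447 in mural-like cells at P1 to 0.21 in endothelial-like cells at P14. For the third such pair, Col4a5 and Col4a6, Spearman's rho was 0.63 and Pearson's r 0.31. Col4a6, the partner of alpha5 in its other trimer, reached 9.59 CPM in mural-like cells at P1 from 18 UMIs and 118 UMIs in all.

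**Figure D2:**
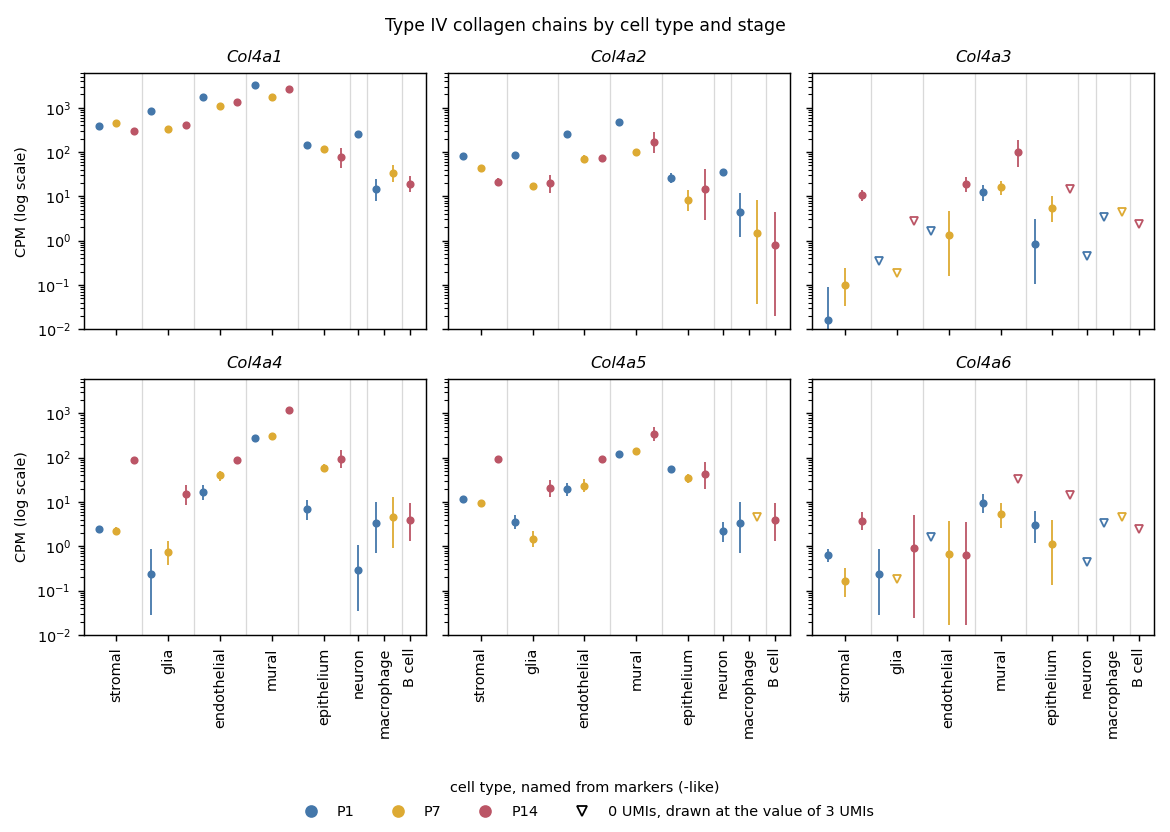
Level of the 6 type IV collagen chains (panels) in CPM on a log axis by cell type, with P1, P7 and P14 as separate points, 95% Poisson intervals as bars and open triangles for groups with 0 UMIs, drawn at the value of 3 UMIs. Col4a1 and Col4a2 are highest at P1 in mural-like cells (3272 and 466 CPM), and Col4a3, Col4a4 and Col4a5 are highest at P14 in the same cells (100.4, 1171 and 346 CPM).

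Of the laminin alpha chains, Lama2 is the chain of muscle, nerve and mesenchymal basement membranes. In stromal-like cells it was at 53.6 CPM (51.8 to 55.5) at P1, 139 (136 to 143) at P7 and 415 (398 to 433) at P14. In mural-like cells the levels were 93.3 (80.0 to 108), 157 (139.9 to 176) and 413 (291 to 569) CPM, and in glia-like cells 137, 152 and 181 CPM. Each of these 3 types was thus highest at P14 and lowest at P1, and the span was smallest in glia-like cells. Lama2 was at most 57.9 CPM in endothelial-like and 34.1 CPM in epithelium-like cells. Among the stromal-like clusters it ranged from 21.1 CPM in cluster 8 to 527 CPM in cluster 5, a cluster of P14 cells.

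Lama4, a chain of vessel and nerve laminins, was at 179 CPM (170.4 to 188) at P1, 90.4 (85.8 to 95.2) at P7 and 46.5 (34.5 to 61.3) at P14 in glia-like cells. There its order over the stages was the opposite of that of Lama2. In endothelial-like cells it was at 92.0, 70.6 and 90.8 CPM, and in mural-like cells at 115, 55.9 and 134 CPM. Over the 19 groups Lama4 ordered with Lamc1, with a Spearman's rho and a Pearson's r of 0.94.

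Lama5, the alpha chain of most epithelial and mature vascular laminins, was found mainly in endothelial-like, epithelium-like and mural-like cells. Its level in endothelial-like cells was 31.6 CPM (23.9 to 40.9) at P1, 56.9 (45.6 to 70.2) at P7 and 116 (100.1 to 135) at P14. In epithelium-like cells it was 63.7 (53.9 to 74.7), 80.4 (67.9 to 94.5) and 33.4 (13.4 to 68.7) CPM, the last from 7 UMIs. Mural-like cells had 18.1, 28.5 and 89.2 CPM, the last from 8 UMIs, and stromal-like cells 1.05, 2.25 and 4.89 CPM. Lama1, best known from early embryonic membranes, was below 12 CPM in all groups except glia-like cells at P14, with 40.9 CPM (29.7 to 54.9) from 44 UMIs in 37 cells (23.3 CPM in cells with under 10% mitochondrial UMIs), and mural-like cells at P14, with 22.3 CPM from 2 UMIs.

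Lamb1 and Lamc1 are the common beta and gamma chains. Lamb1 was at 397 CPM (384 to 411), 429.6 (419.6 to 439.9) and 365 (329 to 403) in glia-like cells at P1, P7 and P14, above the other named types at each stage. Mural-like cells had 182, 223 and 279 CPM, with an interval that overlapped the glia-like one at P14, and epithelium-like cells 176, 177 and 57.2 CPM. Lamc1 was at 149.5 CPM at P1, 81.6 at P7 and 41.9 at P14 in glia-like cells, and at 43.1, 35.5 and 84.6 CPM in stromal-like cells, so the order of these 2 types changed between P7 and P14.

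Lamb2, the beta chain of mature synaptic, kidney and vessel laminins, had its highest level at P14 in all 5 types with 3 stages. In mural-like cells it was at 92.7 CPM (79.5 to 108), 159 (141 to 178) and 491 (357 to 659). In stromal-like cells the levels were 49.1 (47.4 to 50.9), 74.2 (71.8 to 76.6) and 264 (250.4 to 278) CPM, and in endothelial-like cells 118, 132 and 293 CPM. Glia-like cells had 41.2, 43.7 and 122 CPM and epithelium-like cells 34.8, 65.0 and 100.1 CPM. In the epithelium-like cells the intervals at P7 and P14 overlapped.

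Lamb3 is the beta chain of laminin 332, the anchoring laminin of epithelia. Lamb3 was at 1.27 CPM (0.263 to 3.72) at P1, 11.6 (7.16 to 17.7) at P7 and 919.5 (794 to 1059) at P14 in epithelium-like cells. It was at or below 4.68 CPM in the groups of 50 or more cells of all other named types. At P14 it came from 193 UMIs in 20 of the 53 cells, with at most 24 UMIs in a cell, and without that cell the level was 834 CPM. After thinning, 34.0% of 50 epithelium-like cells at P14 had a Lamb3 UMI against 0.160% of 626 endothelial-like cells, and the median depths of these cells before thinning were 4020.0 and 1508.5 UMIs. Only 17 of the 193 UMIs lay in the 33 of these cells with under 10% mitochondrial UMIs, where the level was 142 CPM. The melanocyte and stria markers summed to 1610 CPM in the epithelium-like cells at P14, against 401 at P1 and 275 at P7, and their part in the Lamb3 level was not tested. Lamc3 was highest in mural-like cells, with 6.39 CPM at P1 and 8.44 CPM at P7.

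**Figure D3:**
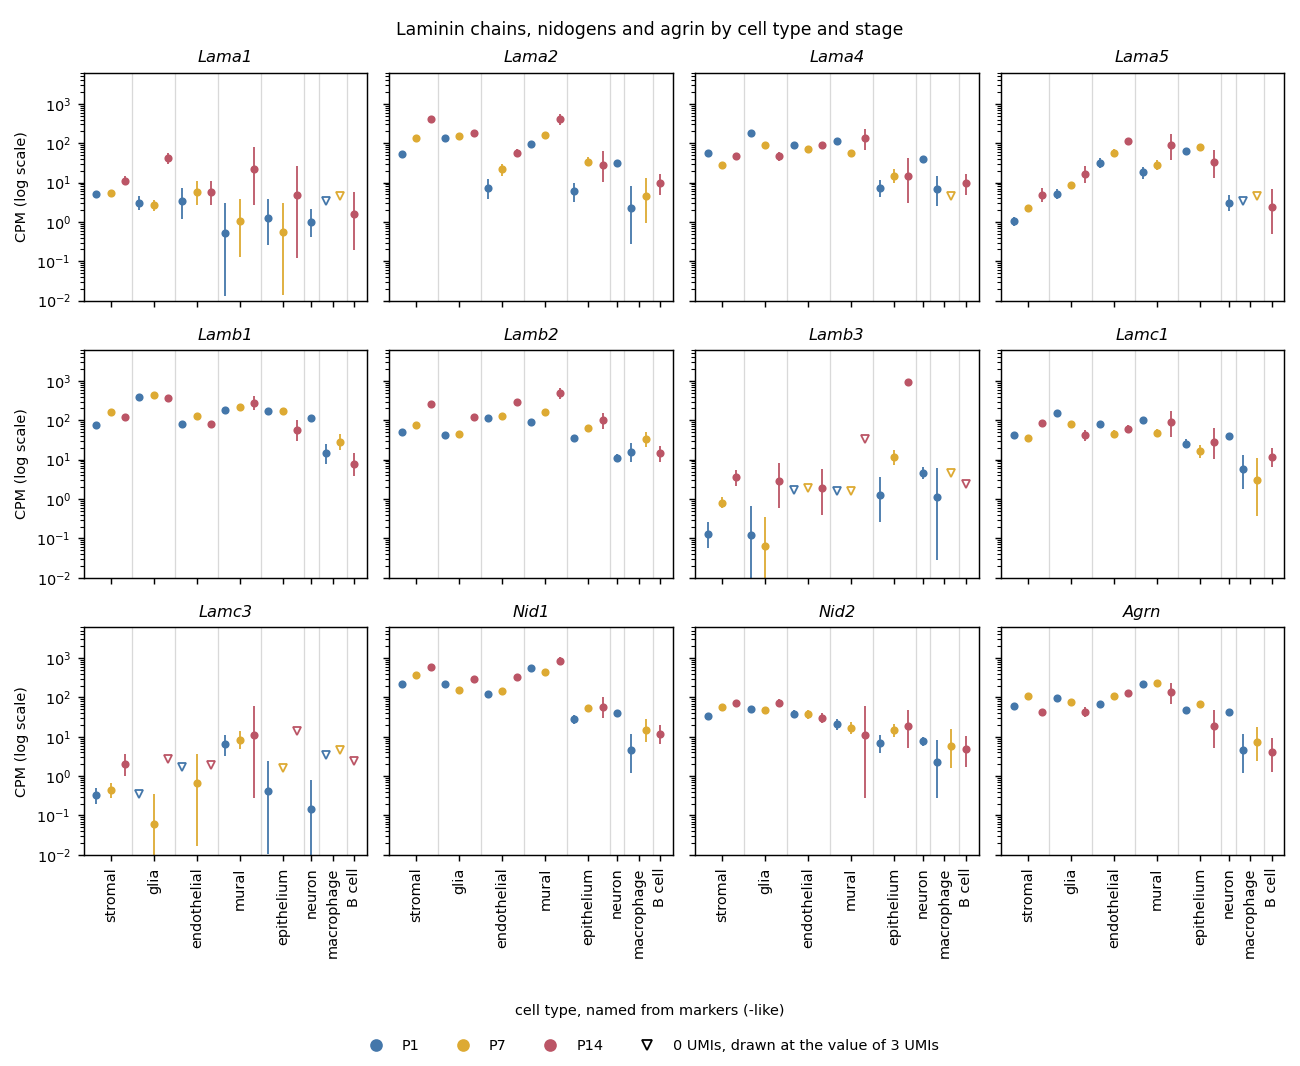
Level of 9 laminin chains, Nid1, Nid2 and Agrn (panels) in CPM on a log axis by cell type and stage, with 95% Poisson intervals and open triangles for 0 UMIs. Lamb2 is highest at P14 in each type with 3 stages, Lama4 and Lamc1 are at 179 and 149.5 CPM at P1 and at 46.5 and 41.9 CPM at P14 in glia-like cells, and Lamb3 stands at 919.5 CPM in the epithelium-like cells of P14 only.

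Nid1, which links the laminin and collagen networks, was at 570.3 CPM (537 to 606) at P1, 435 (406 to 466) at P7 and 825 (648 to 1036) at P14 in mural-like cells. In stromal-like cells it was at 220.2 (216 to 224), 363 (358 to 368) and 587 (567 to 608) CPM, and in endothelial-like cells at 125, 149 and 323 CPM. Epithelium-like cells had 28.0, 53.9 and 57.2 CPM. Among the stromal-like clusters Nid1 ranged from 24.4 CPM in cluster 8, mostly of P1 cells, to 880.5 CPM in cluster 7, mostly of P7 cells. The levels of Nid1 and Lama2 ordered alike over the 19 groups, with a Spearman's rho of 0.88 and a Pearson's r of 0.85.

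Nid2 had another order of types. It was at 34.6, 57.0 and 73.1 CPM in stromal-like cells and at 51.0, 49.2 and 72.5 CPM in glia-like cells, but at 20.8, 16.9 and 11.2 CPM in mural-like cells, where Nid1 was highest. Agrn was at 221 CPM (200.4 to 244), 227 (206 to 249) and 134 (69.2 to 234) in mural-like cells. In stromal-like cells Agrn was at 61.6, 109.6 and 41.9 CPM, with the P7 level above both others.

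Itgb1, the beta chain that pairs with most matrix-binding alpha chains, was found in all types. It was at 844 CPM (803 to 887) at P1, 459 (429 to 491) at P7 and 903 (717 to 1123) at P14 in mural-like cells, and at 479.5, 312 and 493 CPM in endothelial-like cells. Both types had their lowest level at P7. Glia-like cells had 527, 263 and 290.2 CPM, stromal-like cells 332, 230.0 and 241 CPM and epithelium-like cells 276, 221 and 243 CPM. The lowest level of Itgb1 was 39.1 CPM, in B cell-like cells.

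The laminin-binding chains Itga6 and Itgb4 form the alpha6-beta4 integrin of hemidesmosomes and of myelinating glia. Itga6 was at 242 CPM (232 to 253), 234 (227 to 242) and 287 (256 to 321) in glia-like cells and at 160.2 (142 to 179.8), 221 (198 to 246) and 445 (412 to 479) in endothelial-like cells. In stromal-like cells it stayed at 2.21, 5.03 and 8.64 CPM. Itgb4 was at 165 CPM (156 to 174), 214 (206 to 221) and 429 (390.5 to 469.8) in glia-like cells and at 13.9, 22.9 and 77.2 CPM in endothelial-like cells. The glia-like level of Itgb4 was above that of all other named types at each stage, whereas the order of Itga6 in glia-like and endothelial-like cells changed between P7 and P14.

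Itga7, a laminin receptor of muscle and Schwann cells, was at 67.2 CPM (55.9 to 80.0), 110.3 (95.8 to 126) and 234 (145 to 358) in mural-like cells. In glia-like cells it was at 55.3 (50.4 to 60.6), 91.4 (86.8 to 96.2) and 88.4 (71.5 to 108) CPM, and in stromal-like cells at most 4.51 CPM. Itga3, the epithelial laminin receptor, was at 12.3 CPM (8.25 to 17.7), 24.8 (18.1 to 33.1) and 71.5 in epithelium-like cells, the last from 15 UMIs in 10 cells. Of these UMIs, 12 lay in the 33 cells with under 10% mitochondrial UMIs.

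Itga1 is the collagen-binding chain of smooth muscle and vessels. In mural-like cells it was at 368 CPM (341 to 397) at P1, 239.6 (218 to 263) at P7 and 78.1 (31.4 to 161) at P14, the last from 7 UMIs, and the 3 intervals did not overlap. In endothelial-like cells it was at 61.5, 64.1 and 72.1 CPM, with overlapping intervals. Itga10, a collagen receptor known from cartilage, was at 3.44 CPM (2.99 to 3.94), 11.6 (10.7 to 12.6) and 62.0 (55.5 to 69.1) in stromal-like cells. Among their clusters it was highest in cluster 5, at 98.5 CPM, and at or below 18.3 CPM in the others. Itga2 and Itga11 were at or below 8.41 and 4.26 CPM in all groups.

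Among the chains of integrins that bind the RGD motif of fibronectin, osteopontin or latent TGF-beta, Itga8 had the most uneven levels within the stromal-like class. Its level there was 83.4 CPM (81.2 to 85.8), 80.0 (77.5 to 82.5) and 225 (212 to 238) at P1, P7 and P14. It was at 640 CPM in cluster 21, 313 in cluster 4, 246 in cluster 14, 187 in cluster 8 and 91.5 in cluster 5, and at or below 19.8 CPM in the other 5. Itga8 was also found in epithelium-like cells, at 62.4, 63.9 and 14.3 CPM, the last from 3 UMIs in 1 cell.

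Itga5, the fibronectin receptor chain, was at 58.8 CPM (48.1 to 71.1), 75.8 (62.7 to 91.0) and 126 (108 to 144) in endothelial-like cells. It was below 23 CPM in all other groups except the epithelium-like cells at P14, with 57.2 CPM from 12 UMIs. Itgb8 was at 117 CPM (110.1 to 125), 140.1 (134 to 146) and 98.6 (80.7 to 119) in glia-like cells and at or below 45.9 CPM in all other types. Its partner Itgav was low, at 36.1, 12.7 and 12.1 CPM in glia-like cells.

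Itgb5 was at 218 CPM (188 to 251) at P1 and 283 (244 to 326) at P7 in macrophage-like cells, above all other groups. In glia-like cells it was at 25.4, 31.6 and 101 CPM. Itgb6, an epithelial partner of Itgav, was at 17.4 CPM (12.5 to 23.6), 27.5 (20.4 to 36.3) and 33.4 (13.4 to 68.7) in epithelium-like cells and at or below 0.547 CPM in all other named groups, from 0 to 27 UMIs. Itgb3 had 129 UMIs in all and was at most 3.12 CPM.

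Itga4, a receptor for fibronectin and VCAM1, was at 40.5 CPM (36.3 to 45.0), 20.5 (18.4 to 22.8) and 1.86 (0.225 to 6.72) in glia-like cells, with intervals apart. Mural-like cells had 33.0 and 17.4 CPM of Itga4 at P1 and P7 and 0 UMIs at P14, which allows up to 33.5 CPM at that depth. Itga9 had 100 UMIs in all and did not exceed 3.40 CPM.

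The leukocyte chains Itgal, Itgam, Itgax and Itgb2, which form the beta2 integrins of white blood cells, were highest in macrophage-like cells among the named types. Itgb2 was at 51.1 CPM (37.2 to 68.3) at P1 and 77.8 (58.1 to 102) at P7 there, and at 12.8 CPM in B cell-like cells at P14. In the unnamed myeloid cluster Itgb2 was at 66.7, 45.7 and 58.0 CPM at P1, P7 and P14. Itgal, Itgam and Itgax had at most 15, 13 and 15 UMIs in a stage of macrophage-like cells. Itgae, known as a chain of T cells that bind E-cadherin, had another pattern: it was between 7.48 and 68.9 CPM in all 19 groups, with the highest level in glia-like cells at P7. Itgb7, its known partner, had 209 UMIs in all and was at most 11.2 CPM, from 1 UMI in mural-like cells at P14.

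**Figure D4:**
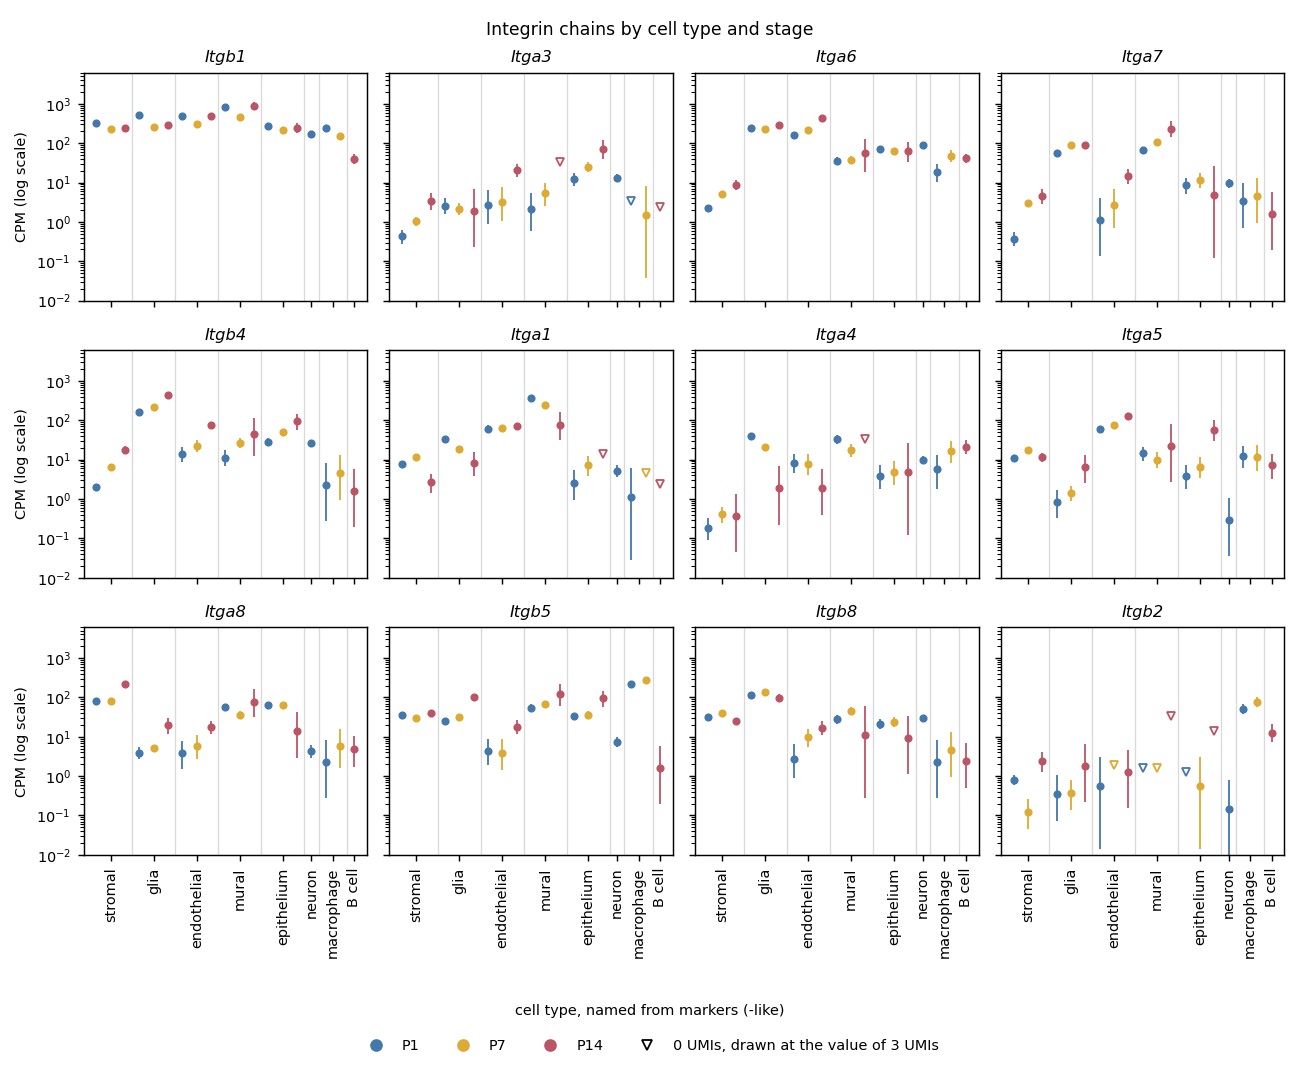
Level of 12 integrin chains (panels) in CPM on a log axis by cell type and stage, with 95% Poisson intervals and open triangles for 0 UMIs. Itgb4 and Itgb8 are highest in glia-like cells, Itga5 in endothelial-like cells, Itga1 in mural-like cells and Itgb2 in macrophage-like cells.

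Between P1 and P7, 2 or more members were called in epithelium-like and glia-like cells and 1 in each of the other types. In stromal-like cells 1 of 18 members was called higher at P7, Lama2 with a log2 ratio of 1.23 (3.87% of all genes), and 0 lower (1.62%). In the same cells, which lay mostly in different clusters at both stages, the fibroblast markers summed to 2148 CPM at P1 and 5426 at P7 and the cartilage markers to 3258 and 7201, and their part was not tested. In glia-like cells 0 of 20 were higher (3.45%) and 3 lower (3.24%): Col4a1 by -1.35, Col4a2 by -1.81 and Itgav by -1.02. Itgav fell short of 2-fold under 4 alternatives, with values from -0.92 to -1.0. The glia-like cells also lay mostly in different clusters at P1 and P7, with glia markers at 9379 and 25440 CPM, and their part was not tested. Col4a2 was also the 1 member called lower in endothelial-like cells, by -1.74 (2.0% of genes lower, 3.12% higher), and in mural-like cells, by -2.13 (1.97% lower, 2.16% higher), where 0 of 19 and 0 of 27 members were higher. The erythroid markers summed to 5586 CPM at P1 and 1337 at P7 in endothelial-like cells, and their part was not tested. In epithelium-like cells 2 of 24 were higher, Col4a4 by 2.02 and Lama2 by 1.47 (5.68%), and 0 lower (2.51%). There the fibroblast markers summed to 316 CPM at P1 and 1049 at P7 and the cochlear mesenchyme markers to 1363 and 2205, and their part was not tested. Col4a2 was thus called lower at P7 in glia-like, endothelial-like and mural-like cells, all read from the same 2 libraries. Below the 2-fold limit it was also lower in stromal-like (80.1 and 43.1 CPM) and epithelium-like cells (26.3 and 8.26 CPM).

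Between P7 and P14 more members were called, and so were more of all genes. In stromal-like cells 7 of 21 were higher at P14: Col4a4 by 2.99, Col4a5 by 2.40, Itga10 by 1.74, Lamb2 by 1.70, Lama2 by 1.51, Itga8 by 1.38 and Lamc1 by 1.06 (10.2% of all genes). Agrn was the 1 lower, by -1.21 (6.25%). Lamc1 was at 0.80 with median-of-ratios scaling and at 0.98 after thinning. In the same cells the fibroblast markers summed to 5426 CPM at P7 and 11810 at P14, the osteoblast markers to 184 and 5384 CPM, and the cartilage markers to 7201 and 2224 CPM. Their part in these differences was not tested.

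In mural-like cells 10 of 26 were higher at P14, where 22.3% of all genes were: Col4a3 by 2.10, Col4a4 by 1.87, Lamb2 by 1.57, Lama1 by 1.55, Lama5 by 1.37, Lama2 by 1.34, Col4a5 by 1.24, Itga10 by 1.14, Lama4 by 1.12 and Itga7 by 1.02. Lower were Itga1 by -1.503 and Itgb8 by -1.40 (11.6%), and the value of Itgb8 rests on 1 UMI. With median-of-ratios scaling 3 were higher and 4 lower, and Col4a5 (0.75), Itga10 (0.77), Itga7 (0.53), Lama2 (0.84), Lama4 (0.66) and Lama5 (0.94) fell short of 2-fold. Lama1, from 2 UMIs, was at -0.11 with a mitochondrial limit of 10% and at -0.14 with the members among the variable genes. Only 62 mural-like cells, with 89660 UMIs in all, were found at P14. The pericyte and smooth muscle markers summed to 7365 CPM at P7 and 9692 at P14 in these cells. The fibroblast markers summed to 2313 and 6079, the glia markers to 1333 and 6324 and the markers of dividing cells to 811 and 100.4. The part of these 3 lists in the differences was not tested.

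In endothelial-like cells 7 of 23 were higher at P14 (16.8%): Col4a5 by 1.61, Itgb4 by 1.41, Itga3 by 1.21, Lama2 by 1.10, Lamb2 by 1.09, Nid1 by 1.07 and Itgb5 by 1.01. Itgae was lower by -1.16 (4.84%), and by -0.89 without barcodes marked as doublets. Scaling by median-of-ratios left 3 of these higher. The glia markers summed to 788 CPM at P7 and 4854 at P14 here, the fibroblast markers to 559 and 1687 and the markers of dividing cells to 416 and 81.7, and their part was not tested. In glia-like cells 4 of 24 were higher (11.8%), Lama1 by 2.01, Itgb5 by 1.42, Col4a5 by 1.41 and Lamb2 by 1.29, and Itga4 was lower by -1.36 (8.09%). Col4a5 fell short of 2-fold there when cells were clustered at resolution 0.4, with 0.22, or with the members among the variable genes, with 0.42. Lamb2 did so under the same settings, with 0.90 and 0.86, and fell just short after thinning. The glia markers summed to 25440 CPM at P7 and 74320 at P14, and the osteoblast markers to 22 and 1186, and their part was not tested.

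In epithelium-like cells 4 of 25 were higher at P14 (11.5%), Lamb3 by 5.43, Itga5 by 2.02, Itga3 by 1.23 and Itgb5 by 1.18, and 4 lower (14.2%), Itga8 by -1.60, Lamb1 by -1.48, Agrn by -1.43 and Lama5 by -1.06. The values for Itga8, Agrn and Lama5 rest on 3, 4 and 7 UMIs at P14. With the mitochondrial limit at 10%, only 33 of the 53 cells remained, below the minimum of 50, and in them Itga5 had 2 UMIs (16.7 CPM) and Itgb5 4 UMIs (33.4 CPM). The glia markers summed to 2399 CPM at P7 and 5693 at P14 in epithelium-like cells, and their part was not tested.

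Lamb2 and Col4a5 were called higher at P14 in 4 of the 5 types, all but epithelium-like cells, and Lama2 and Itgb5 in 3. Per type, from 10.2% (stromal-like) to 22.3% (mural-like) of all genes were called higher. The share of all genes called in several types is not given here. Under median-of-ratios scaling Lamb2 in endothelial-like cells (0.72) and Col4a5 in mural-like cells (0.75) were below 2-fold, and the glia-like values of both depended on the clustering as given above. With the same scaling Lama2 was at 0.84 in mural-like and 0.80 in endothelial-like cells. In endothelial-like cells, the mean of each cell's CPM gave 0.79 for Lamb2, 0.50 for Lama2 and 0.71 for Itgb5. Thinning gave 0.60 for Lamb2 and 0.67 for Lama2 there. Itgb5 in epithelium-like cells was at 0.79 with the mean of each cell's CPM. Across the 5 types, the members' median log2 ratio for P14 against P7 was 0.33 in stromal-like, 0.19 in glia-like, 0.66 in endothelial-like, 0.84 in mural-like and 0.13 in epithelium-like cells, against 0.04, 0.03, 0.26, 0.21 and -0.04 for all genes tested. Scaling by median-of-ratios moved the median of all genes to -0.19, -0.21, -0.04, -0.20 and -0.14. With it, the share of higher calls among the called members went from 87.5% to 75.0% in stromal-like, from 80.0% to 50% in glia-like, from 87.5% to 75.0% in endothelial-like and from 83.3% to 42.9% in mural-like cells. In the epithelium-like cells it was 50% with the first scaling and 44.4% with the other. Among all called genes the share went from 62.0% to 37.5%, 59.4% to 35.8%, 77.7% to 43.5%, 65.9% to 34.1% and 44.9% to 37.5% in the same order of types. For P7 against P1 it moved for called members in epithelium-like cells, from 100% to 66.7%.

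**Figure D5:**
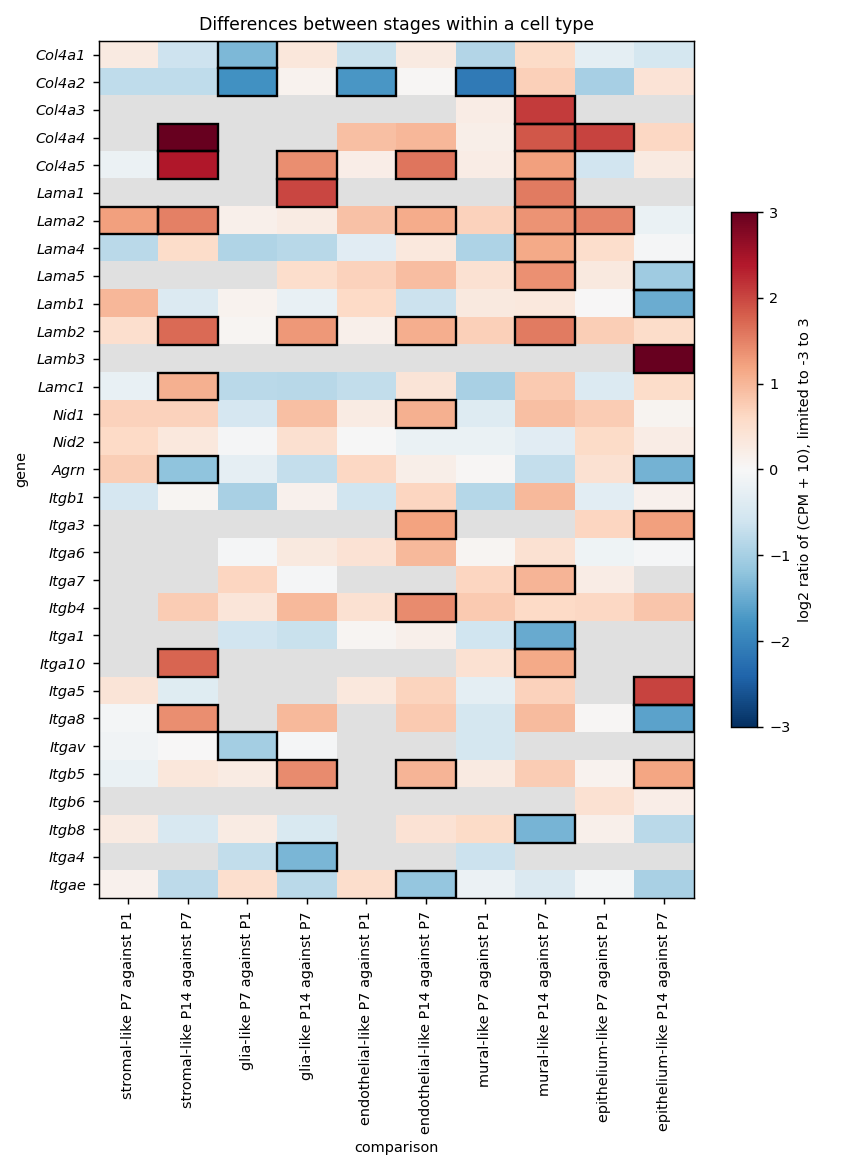
Log2 ratio of CPM + 10 for 31 members (rows) in 10 comparisons, P7 against P1 and P14 against P7 in 5 cell types (columns). The color scale is limited to -3 and 3, boxes mark the 49 ratios of at least 2-fold, which run from -2.13 to 5.43, and grey cells are below the limit on low values. The P14 columns hold more boxes than the P7 columns.

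Other genes of the pathway were read from 4 lists, of 8 integrin ligands, 18 other basement membrane proteins, 6 other laminin receptors and 13 cytoplasmic linkers and kinases of integrins. Beside each count below stands the share of all genes called in that direction. In mural-like cells 1 of 6 tested ligands was called higher than in all other cells, Vtn (vitronectin) with 784.5 CPM against 10.6 (5.3% of all genes), and 4 lower, Fn1, Tnc, Spp1 and Vcam1 (5.88%). Of the other basement membrane proteins there, 4 of 10 were higher, Sparc, Egflam, Tinagl1 and Bgn (5.3%), and 4 lower, Col15a1, Fbln2, Hmcn1 and Smoc2 (5.88%). Of the linkers, 5 of 11 were higher, Tln1, Fermt2, Ilk, Lims1 and Vcl, which act between the beta chain and actin (5.3%), and 0 lower (5.88%). Bcam, a receptor for Lama5 laminins, was at 325 CPM in mural-like, 305.5 CPM in endothelial-like and 449 CPM in epithelium-like cells, and at 28.3, 27.3 and 24.8 CPM in all cells outside each of them.

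In glia-like cells the laminin receptors Dag1 (374.5 against 88.2 CPM) and Sdc4 were called higher (5.82%) and Bcam and Sdc1 lower (9.2%), of 5 tested. The linkers Fermt2, Vcl and Plec were higher, of 11 (5.82%), and the ligands Fn1, Vtn, Spp1 and Vcam1 lower, of 5 (9.2%). Of 10 other basement membrane proteins, Col18a1 was higher (5.82%), and Col15a1, Fbln1, Tinagl1 and Bgn were lower (9.2%). In endothelial-like cells Icam1 among 6 ligands, Col15a1, Hmcn1 and Tinagl1 among 10 basement membrane proteins and Pxn and Plec among 11 linkers were higher (10.2%). The ligands Fn1, Tnc and Spp1 and the basement membrane proteins Fbln2, Egflam, Smoc2 and Bgn were lower there (8.26%). So were Sdc1 and Sdc4 among 5 laminin receptors. In stromal-like cells Fn1, the main RGD ligand, was at 415 CPM against 146 elsewhere, and Vcam1 and Bgn were higher too (2.75%). More of the listed genes were lower in stromal-like cells (7.08%). These were Vtn of 6 ligands and Smoc2 and Tinagl1 of 10 basement membrane proteins. Dag1 and Bcam of 5 laminin receptors and Fermt2, Vcl and Plec of 11 linkers were also lower. In epithelium-like cells Smoc2 was at 602.5 CPM against 4.74, Col18a1, Sdc4 and Spp1 were higher (6.2%), and Fn1, Vtn, Tnc and Vcam1 were lower (7.08%). Also lower there were Col15a1, Fbln1, Egflam and Bgn among 10 basement membrane proteins and Tln1 and Tln2 among 11 linkers. Macrophage-like cells had Fermt3, the kindlin of blood cells, at 170.5 CPM against 2.90 (9.79% higher), and 8 of 9 other basement membrane proteins lower (19.9%). Icam1, Tln1 and Pxn were higher there too. Of the other lists, 4 of 6 ligands, 3 of 5 laminin receptors and 6 of 11 linkers were lower.

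Between P7 and P14, Vcl (vinculin), Spp1 (osteopontin) and Rpsa, the gene of a laminin-binding ribosomal protein, were called in each of the 5 types. They were picked from the lists for this reason. Per type, from 10.2% (stromal-like) to 22.3% (mural-like) of all genes were called higher at P14. From 4.84% (endothelial-like) to 14.2% (epithelium-like) were called lower. The share of all genes called in every type is not given here. Whether these genes stand out from the other genes of the libraries was not tested. Vcl was higher at P14, with log2 ratios from 1.12 in epithelium-like to 2.71 in stromal-like cells. Spp1 was higher with log2 ratios from 2.30 in stromal-like to 6.95 in epithelium-like cells, where it was at 176 CPM at P7 and 22940 CPM at P14. Rpsa was lower, with log2 ratios from -1.39 in mural-like to -2.04 in epithelium-like cells.

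Summed over all retained cells, the 19 basement membrane chains were at 1283 CPM (1276 to 1290) at P1, 1457 (1450 to 1465) at P7 and 1841 (1817 to 1866) at P14. The 24 integrins were at 684.8, 679.4 and 796.5 CPM. The sums over all cells also carry the different mix of types at each stage. By type, the basement membrane chains summed to 5580, 3711 and 6937 CPM in mural-like cells, 2708, 1994 and 2791 in endothelial-like cells and 2230, 1442 and 1708 in glia-like cells, each lowest at P7. In stromal-like cells they summed to 1082, 1497 and 2171 CPM, and in epithelium-like cells to 642.5, 772.8 and 1525 CPM, of which Lamb3 made up 919.5 CPM at P14. The macrophage-like cells had 85.1 and 136 CPM of these chains and 619.7 and 667 CPM of integrins, more integrin than basement membrane UMIs. The integrins summed to 1588, 1120 and 1628 CPM in mural-like and to 1306, 1113 and 1400 CPM in glia-like cells.

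In all, 10 pairs of members were compared over the 19 groups. For those not given above, Spearman's rho and Pearson's r were 0.75 and 0.59 for Itga6 and Itgb4, 0.63 and 0.34 for Nid1 and Nid2, and 0.62 and 0.61 for Lamb1 and Lamc1. They were 0.60 and 0.74 for Lama2 and Lamb2 and 0.41 and 0.69 for Itga7 and Itgb1.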

How the data were processed

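Dissociated cochlear basal membrane cells of 40 pooled rats per stage gave 1 library each at P1, P7 and P14 (10x Genomics 3′ V3). The authors aligned reads to rn6 with Cell Ranger (3.1.0 in the matrix header) and deposited UMI counts per gene and barcode, not normalized. The submitters' notes also name bcl2fastq and Seurat 3.1.1. The gene annotation and the rule for calling cells are not given in the sources used here.

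Barcodes with 501 to 4999 genes and under 25% mitochondrial UMIs were kept. They held 98005495, 93080129 and 11641065 UMIs at P1, P7 and P14. Clustering in Seurat 5.3.0 (R 4.3.3) took the settings of the study's methods, with inputs that differ (retained barcodes only, members left out of the variable genes, no canonical correlation analysis): log normalization, 2000 variable genes by vst less the 12 members among them, 10 principal components and resolution 0.8, with seed 0. The 27 clusters were joined by hand into broad types, after their values were seen, from 18 marker lists (155 of 163 markers in the matrices). Members, gene lists and tests were chosen with earlier results of these data known. Members are named by role, and the values of 1 of them are not reported here.

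Counts were summed over the cells of a group and scaled to CPM, with exact 95% Poisson intervals. Ratios used log2(CPM + 10), genes with a mean of at least 10 CPM and a 2-fold limit. With 1 library per stage there was no test. For shares of cells each cell was thinned to 1000 UMIs, which left out 965 cells, and where none was seen the limit was set at 3 counts. Scrublet, through scanpy 1.11.5, marked 4.87% of barcodes at P1 and 6.16% at P7; its 0.0379% at P14 was not used. All barcodes were kept in the main values. Alternatives were the mitochondrial limit (10%), resolutions 0.4 and 1.2, members among the variable genes, doublets removed, 1 CPM added, no limit on low values, median-of-ratios scaling, the mean of each cell's CPM and thinned cells. Scripts ran in Python 3.11.15 (numpy 2.4.6, scipy 1.17.1, pandas 2.3.3, matplotlib 3.10.9) and were tested on simulated data.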

Additional observations from a re-analysis of the deposited data

Results flagged for a closer look

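Lama5 and Itga8 differed in opposite directions between P7 and P14 in 2 cell types each. The log2 ratio of Lama5 was 1.37 in mural-like and -1.06 in epithelium-like cells, from 8 and 7 UMIs at P14, and became 0.40 in mural-like cells with a mitochondrial limit of 10% and -0.43 in epithelium-like cells after thinning. The log2 ratio of Itga8 was 1.38 in stromal-like and -1.6 in epithelium-like cells, where the 3 UMIs at P14 came from 1 cell. The differences between the types were not tested, since each stage has 1 library.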

How the results depend on the processing

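Each alternative was tried alone, and 2 were added after seeing the data: thinning in the contrasts with all other cells and calling within each stage. No paired analysis was possible because each stage has 1 library. Depth limits P14 most, above all in mural-like cells. Of the 118 called ratios, 1 CPM added and no limit on low values left all 118 at 2-fold or more, doublet removal 115, members among the variable genes 113, median-of-ratios scaling 105, the mean of each cell's CPM 103, and the mitochondrial limit of 10% 104 of the 110 that could be formed. Resolution 0.4 left 98 of 100, resolution 1.2 99 of 100, and thinning 30 of 37 stage ratios and 60 of 69 type ratios. Lama1 in mural-like cells, P14 against P7, changed sign with the members among the variable genes (-0.14) and with the 10% limit (-0.11). The cause of the changes below was not tested.

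With the mean of each cell's CPM, members higher numbered 3 (P14 against P7) and 2 (P7 against P1) in endothelial-like, 6 in epithelium-like and 2 in stromal-like cells (both P7 against P1), and members lower 2 and 2 in endothelial-like, 1 in epithelium-like and 2 in mural-like cells (both P7 against P1), and 4 in glia-like and 2 in mural-like cells against all others. The sums at P1, P7 and P14 were then 1413, 1551 and 2245 CPM for basement membrane chains and 733, 734 and 882 CPM for integrins. With 1 CPM added, higher members numbered 11 (P14 against P7) and 2 (P7 against P1) in endothelial-like, 1 in mural-like and 2 in stromal-like cells (both P7 against P1), and lower ones 3 in mural-like and 1 in epithelium-like cells (both P7 against P1), 2 in glia-like cells (P14 against P7), and 7 in endothelial-like and 2 in mural-like cells against all others. With median-of-ratios scaling, P14 against P7 gave 3 higher in endothelial-like, 3 higher and 4 lower in mural-like, 4 lower in glia-like and 2 lower in stromal-like cells, and P7 against P1 gave 1 lower in epithelium-like and 2 lower in mural-like cells. With thinned cells, P14 against P7 gave 4 higher and 2 lower in endothelial-like and 2 lower in glia-like cells, and P7 against P1 gave 4 higher and 2 lower in endothelial-like, 6 higher in epithelium-like, 3 higher and 3 lower in mural-like and 2 higher in stromal-like cells. The thinned sums were 1418, 1572 and 2121 CPM and 725, 727 and 835 CPM, and against all others 3 members were lower in glia-like and 2 in mural-like cells.

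With the 10% limit, 3 members were higher in epithelium-like cells against all others, 1 lower in epithelium-like and 2 in mural-like cells at P7 against P1, and 2 lower in glia-like cells at P14 against P7. The basement membrane sum was then 1263 CPM at P1 and 1385 at P7, and the integrin sums 671, 608 and 775 CPM. Without marked doublets, 0 members were lower in endothelial-like cells at P14 against P7, 2 in mural-like cells at P7 against P1, and 2 in glia-like and 2 in mural-like cells against all others. Without a limit on low values, 5 were higher in macrophage-like and 4 lower in glia-like cells against all others, and 4 lower in mural-like cells at P14 against P7. At resolution 1.2, 2 were lower in glia-like cells. Within each stage, 5 were higher and 2 lower in endothelial-like, 1 higher in epithelium-like, 5 higher in glia-like and 3 lower in stromal-like cells. The type with the highest level was the same for all 43 members with the members among the variable genes, 41 with the 10% limit, 41 without doublets, 40 with the mean of each cell's CPM, 34 at resolution 0.4 and 36 at 1.2. At both resolutions the macrophage-like class was not found again, so that its 7 members, such as Itgb2 and Itgb5, were counted for other types.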

Other observations

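Values of a group that was not compared on its own are given here without explanation. Its cells counted among all other cells in the comparisons of types. The unnamed P14 cluster of 101 cells that led with endothelial and pericyte genes had 84.6 CPM of Col4a3 (56.2 to 122), 653 CPM of Col4a4 and 239 CPM of Col4a5 (189 to 298). In mural-like cells at P14 these were 100.4, 1171 and 346 CPM. In the same cluster Col4a6 had 0 UMIs, which allows up to 9.07 CPM, and Itga6 was at 284 CPM (229.6 to 348), against 55.8 CPM in mural-like and 445 CPM in endothelial-like cells at P14. Itgb1 was at 586 CPM (507 to 675) there and Itga1 at 81.6 CPM (53.8 to 119).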
